A study of Mus musculus with 2 samples.

Results

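The AP-1 family transcription factors described here are Fos, Fosb, Fosl2, Jun, Junb, Jund, Atf3, Maff and Batf3. They are 9 of the 27998 genes in 2 single-cell RNA libraries of mouse spinal cord, were taken by gene symbol, and all 9 had UMIs (unique molecular identifiers, 1 per captured RNA molecule) in both libraries. Cells with yellow fluorescent protein were sorted from Cx3cr1-CreERT2-YFP::flxRunx1 mice on the C57BL/6J background, in which a tamoxifen-inducible Cre and the fluorescent protein are driven from Cx3cr1, the gene of a chemokine receptor on microglia and related phagocytes. The library labelled wild type came from vehicle-injected mice and the library labelled Runx1 knock-out from mice given tamoxifen, 1 mg a day in 5 injections, both taken 4 weeks after the first injection. Spinal cords of both groups were treated with collagenase (2 mg/ml, 37 °C, 30 min). The labels put both groups in the same transgenic strain and do not say which part of Runx1 is deleted or how many animals went into a library. Each group has 1 library, so there was no test, the effects of tamoxifen and of the deletion cannot be told apart, and every interval below is a 95% interval for counting error only.

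AP-1 is a dimer of leucine zipper proteins. Jun proteins pair with themselves or with Fos, Atf, Maf or Batf proteins, and the pair sets which DNA element is bound and whether transcription is raised or lowered. Many of these genes are immediate early genes, silent or low at rest and switched on within minutes by growth factors, cytokines, stress or handling of tissue. In microglia, the macrophages that live in brain and spinal cord, AP-1 partners are known for their part at inflammatory genes.

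In the wild-type library 4582 barcodes had a median of 6376 UMIs, and in the library labelled knock-out 2604 barcodes, 2596 of them kept, had a median of 3716, and 9 barcodes were shared by both. Clustering without the members and other immediate early genes gave 2 large classes, microglia-like cells (2179 and 1353 cells) and endothelial-like cells (1623 and 832), and a class of pericyte or smooth muscle-like cells (199 and 138) and one of erythrocyte-like cells (55 and 72). All 12 microglial markers were detected in the microglia-like class of both libraries, but also in the endothelial-like class. Detection thus does not set these classes apart, and the marker levels are given below. Of the cells 35.4% in the wild-type and 32.0% in the other library were endothelial-like, although the sort was for Cx3cr1. The libraries stood apart within each large class: cluster 2 held 1350 of the 1353 microglia-like cells labelled knock-out, and cluster 0 held all 2179 wild-type ones. Runx1 itself stood at 92.6 CPM (3′ UMI tags scaled to a total of 1e+06 for the class, 1 tag per molecule and not divided by gene length) in wild-type microglia-like cells and at 180 CPM in those labelled knock-out, a log2 ratio of 0.96 (0.85 to 1.08). Its 3′ tags were thus not lower there. Such tags may lie outside the deleted part and then check nothing, so the second library is called by its label throughout.

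The DNA just before the start sites is shown first, because several members carry related letters there that are known as response elements of their own family. RefSeq windows on GRCm38.p6 were found for all 9 genes, with 3 for Maff and 1 for each of the others. The 120 bases before the start follow for 6 members, 5′ to 3′ on the gene's strand, with capitals marking TGACG on either strand (the core of the cAMP response element), the full TGACGTCA, or TGACATCA, the element described for Jun:
Fos: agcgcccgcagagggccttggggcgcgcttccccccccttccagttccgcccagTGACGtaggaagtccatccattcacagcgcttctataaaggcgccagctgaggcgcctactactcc
Fosb: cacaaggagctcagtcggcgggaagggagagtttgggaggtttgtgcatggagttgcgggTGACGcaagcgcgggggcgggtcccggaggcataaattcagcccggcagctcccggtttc
Jun: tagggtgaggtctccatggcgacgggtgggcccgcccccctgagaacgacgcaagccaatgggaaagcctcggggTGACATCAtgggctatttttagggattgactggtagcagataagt
Junb: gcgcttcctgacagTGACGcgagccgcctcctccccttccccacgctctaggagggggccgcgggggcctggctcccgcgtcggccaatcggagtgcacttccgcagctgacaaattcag
Atf3: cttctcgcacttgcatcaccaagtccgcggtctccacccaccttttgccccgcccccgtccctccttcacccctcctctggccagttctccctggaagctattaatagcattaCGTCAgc
Maff, window 2: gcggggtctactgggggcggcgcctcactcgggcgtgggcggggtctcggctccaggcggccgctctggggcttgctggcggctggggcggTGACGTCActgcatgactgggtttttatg

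These stretches lie at chr12:85473770-85473889 (plus strand) for Fos, chr7:19310046-19310165 (minus) for Fosb, chr4:95052223-95052342 (minus) for Jun, chr8:84978749-84978868 (minus) for Junb, chr1:191183334-191183453 (minus) for Atf3 and chr15:79347400-79347519 (plus) for Maff. The GENCODE M21 annotation puts the Maff stretch inside the Maff gene with no exon on it, and the Atf3 stretch inside the Atf3 gene, 34706 bases after the gene's first base, with an exon on 7 of its bases. The Jun stretch lies inside Junos, an antisense gene. In the whole windows of 250 bases before the start, searched on both strands, TGACG was found in Fos at 129 and 66 bases before the start, in Fosb at 60, in Junb at 106, in Atf3 at 7, and in windows 2 and 3 of Maff. Thus 5 of the 9 genes had it in at least 1 window. Of all 32851 RefSeq windows 17.8% held it, a share of single windows and not of genes, while Maff had 3 windows. The full TGACGTCA, which contains TGACG, occurred only in Maff window 2, 29 bases before the start, and in 1.55% of all windows. TGACATCA was found in Jun and in Maff window 3, each 45 bases before the start, and in 2.93% of all windows. No member's window held TGACTCA, the classical AP-1 element, which 4.46% of all windows hold. The windows of Fosl2, Jund and Batf3 held none of these letters. That of Jund starts from a RefSeq site 1210 bases upstream of the GENCODE gene, and those of Fosl2 and Batf3 from sites 671 and 567 bases inside theirs. A match describes the letters only.

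In microglia-like cells the 9 members together had 12434 CPM (12379 to 12490) in the wild-type and 20512 CPM (20399 to 20626) in the tamoxifen library. The summed level was thus 1.65 times higher in the library labelled knock-out, a log2 ratio of 0.72 (0.71 to 0.73). All 9 members had a ratio above 0, with a median of 0.56, where the median of all 5754 genes measured (20 CPM or more in at least 1 library) was -0.04. At least 1.5 times higher were 4 of the 9, Maff, Junb, Fos and Jund, and none was lower by that fold. Of all measured genes 8.1% were higher and 12.5% lower by that fold. The members were chosen with earlier results of these data known, so their counts only describe this list. Leaving the mitochondrial, ribosomal protein and haemoglobin genes out of the total, or scaling by the median of ratios, left the count at 4. With every cell thinned to 1500 UMIs in a single random draw the count was 7, with Fosb, Fosl2 and Atf3 added. In the separate draw used for the shares below, these added members stayed under 1.5 times. Mean UMIs per microglia-like cell there were 0.149 and 0.195 for Fosb, 0.0188 and 0.0251 for Fosl2 and 1.44 and 2.06 for Atf3. The count was 2 (Junb and Jund) when the libraries were clustered separately, which named only 767 cells labelled knock-out microglia-like.

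**Figure D1:**
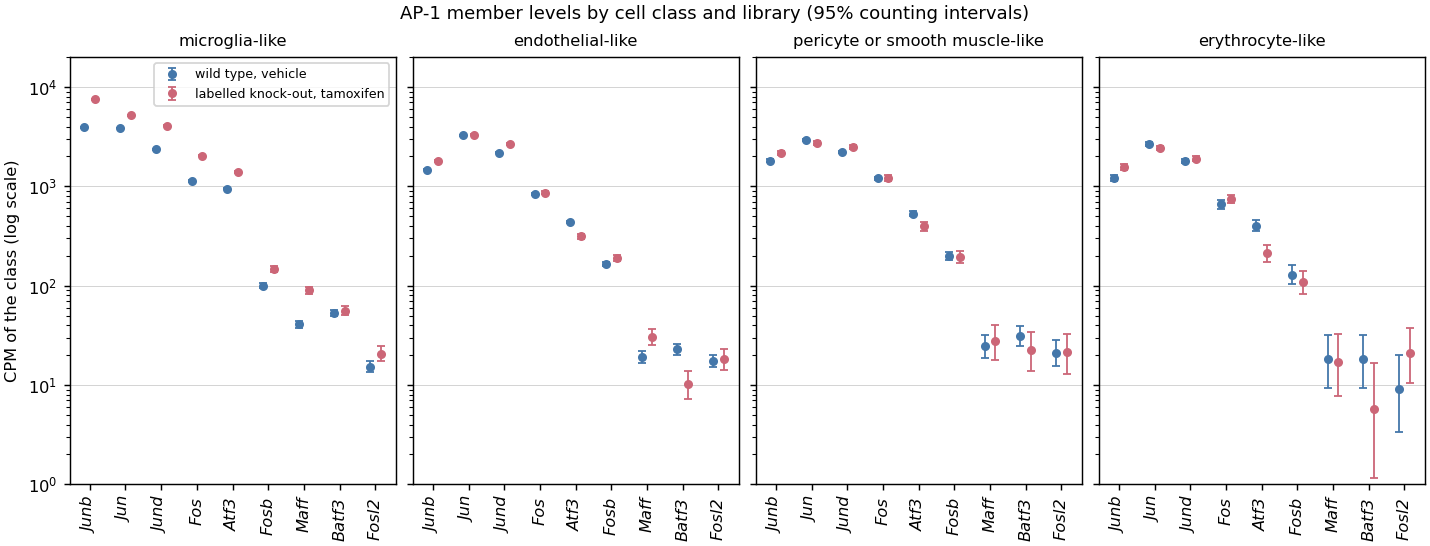
Level of each member in CPM (log axis) in the 4 largest named cell classes, wild-type library in blue and library labelled knock-out in red, with exact Poisson 95% intervals. In microglia-like cells the red points lie above the blue for every member, with overlapping intervals for Batf3 and, barely, Fosl2, while in the other classes most pairs lie close together.

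The Jun proteins can pair with one another, and they supplied most AP-1 RNA. Junb (chr8:84974484-84978718, minus strand, GRCm38), often a brake on growth genes and a partner in cytokine responses, was at 3912 CPM in wild-type microglia-like cells and at 7497 CPM in those labelled knock-out, a log2 ratio of 0.94 (0.92 to 0.96). That ratio lay above those of 97.7% of measured genes. In wild-type cells Junb and Jun stood side by side with overlapping intervals, whereas in the library labelled knock-out Junb led, with 36.5% of all AP-1 UMIs. Jun (chr4:95049034-95052222, minus strand), the founding member and target of the Jun N-terminal kinases, was at 3873 and 5200 CPM, a log2 ratio of 0.43 (0.41 to 0.44). This was the smallest ratio among the 3 Jun proteins. Jund (chr8:70698949-70700616, plus strand), which most cells make without stimulation, was at 2363 and 4074 CPM, a log2 ratio of 0.79 (0.76 to 0.81).

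In the other 3 classes plotted the Jun proteins were lower, as CPM of the whole class, and nearer between libraries. For Junb in endothelial-like cells the nearness depended on the clustering, with a ratio of 0.28. That ratio became 0.66 at a finer resolution and 0.67 with the libraries clustered separately. These clusterings summed other sets of cells, 1082 and 930 at the finer resolution and 853 and 763 with separate clustering. At the finer resolution the class took in a cluster of 141 cells labelled knock-out and 0 wild-type cells. Its top genes included Cfp and Cebpb, which also led the microglia-like cells labelled knock-out. The ratios of these clusterings thus compare unlike sets of cells. In endothelial-like cells Junb was at 1472 and 1786 CPM, at 1815 and 2160 CPM in pericyte or smooth muscle-like cells and at 1202 and 1566 CPM in erythrocyte-like cells, in each case higher in the library labelled knock-out with no overlap of the intervals. Jun was the top member in all 3 of these classes in both libraries, at 3257 and 3319 CPM in endothelial-like cells, 2953 and 2727 CPM in pericyte or smooth muscle-like cells and 2657 and 2433 CPM in erythrocyte-like cells. Jund followed at 2183 and 2667, 2227 and 2492, and 1800 and 1894 CPM. Erythrocyte markers took 254401 and 331946 CPM of the erythrocyte-like totals. With these markers left out, Jun was at 3563 and 3642, Jund at 2414 and 2836 and Junb at 1612 and 2343 CPM there. Wild-type Jund was then no lower than in microglia-like cells, where it was at 2372 CPM without the same markers. Junb was also at the top in unnamed cluster 4 of the library labelled knock-out, at 3641 CPM against 3575 CPM for Jun, with overlapping intervals.

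Overlaps on the opposite strand bear on the Jun counts, since no source used here states that counting used the strand. Prdx2, a peroxiredoxin gene, shares 351 bases with the 3′ end of Junb, and in microglia-like cells it ran the other way, from 229 CPM to 159 CPM. Junos overlaps Jun by 689 bases and Gm11175 overlaps Jund by 919, with 238 and 410 UMIs in all cells of both libraries.

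The Fos proteins do not pair among themselves and most often have a Jun partner. Fos (chr12:85473890-85477273, plus strand), the archetypal immediate early gene, was at 1132 CPM in wild-type microglia-like cells and at 2039 CPM in the tamoxifen library, a log2 ratio of 0.85 (0.82 to 0.88). In endothelial-like cells it was at 841 and 866 CPM and in pericyte or smooth muscle-like cells at 1203 and 1213 CPM, with overlapping intervals in both classes. Fosb (chr7:19302696-19310051, minus strand), whose truncated form is known for its stability in neurons, was lower in microglia-like than in endothelial-like cells of both libraries. It was at 100.2 and 148 CPM in microglia-like cells, 165 and 189 CPM in endothelial-like cells and 201 and 195 CPM in pericyte or smooth muscle-like cells. Its ratio in microglia-like cells was 0.56 (0.45 to 0.68). Fosl2 (chr5:32135801-32157842, plus strand), a slower Fos-related protein, was the lowest member in microglia-like cells at 15.2 and 20.7 CPM, a ratio of 0.44 (0.12 to 0.76) that rests on 239 and 127 UMIs. It turned to -0.39 when the libraries were clustered separately.

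The remaining members are small partners. Atf3 (chr1:191170296-191218039, minus strand), a stress-induced protein that mostly lowers transcription and restrains macrophage cytokine genes, was at 945 CPM in wild-type and 1386 CPM in the other microglia-like cells, a ratio of 0.55 (0.52 to 0.59). In endothelial-like cells it went the other way, from 435 to 314 CPM, a ratio of -0.47 (-0.56 to -0.38), and in pericyte or smooth muscle-like cells from 530 to 398 CPM, a ratio of -0.41 (-0.58 to -0.24). Erythrocyte-like cells, which should make none, also held 403 and 212 CPM of Atf3. After free RNA was subtracted, the ratio in endothelial-like cells turned to 0.0449, and it was -0.06 with the libraries clustered separately and -0.14 at the finer resolution. Both of these clusterings summed other sets of cells, as described for Junb above. Maff (chr15:79346621-79359076, plus strand), a small Maf protein without an activation domain, was at 40.8 and 90.1 CPM in microglia-like cells, a ratio of 1.14 (0.98 to 1.31), the largest of the 9. It was also higher in endothelial-like cells, at 19.3 and 30.4 CPM. Batf3 (chr1:191097847-191108945, plus strand), known for its need in cross-presenting dendritic cells, was at 53.4 and 55.8 CPM in microglia-like cells, a ratio of 0.06 (-0.12 to 0.25). Its intervals overlapped, and it is the member for which the 2 libraries did not differ beyond counting error.

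**Figure D2:**
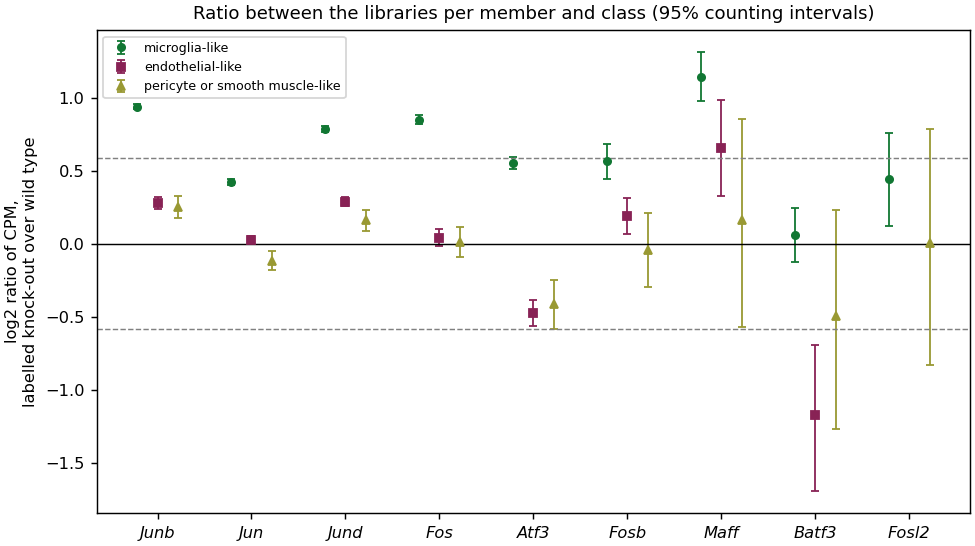
Log2 ratio of the library labelled knock-out over the wild-type library for each member in 3 cell classes, with exact conditional 95% intervals for counting error. The dashed lines mark 1.5 times higher and lower, and Fosl2 lies under 20 CPM in endothelial-like cells and is not drawn there. Maff, Junb, Fos and Jund lie above the upper line in microglia-like cells, and Atf3 lies above 0 in microglia-like cells and below it in the other 2 classes.

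Over all 9 members the endothelial-like class had 8414 and 9199 CPM, a log2 ratio of 0.13 (0.11 to 0.15), with the median of all 6307 genes measured there at 0.09. Of its 8 measured members 1 was higher (Maff) and 1 lower (Batf3, 22.8 and 10.1 CPM) by 1.5 times, where 5.39% of all genes were higher and 6.03% lower. The pericyte or smooth muscle-like sum was 9006 and 9257 CPM, a ratio of 0.04 (0.0032 to 0.0758), and none of the 9 members passed 1.5 times, where 10.8% of 6774 genes were higher and 7.69% lower. Erythrocyte-like cells had 6894 and 7003 CPM, a ratio of 0.02 (-0.04 to 0.09) on the whole totals. Erythrocyte markers took an unequal 254401 and 331946 CPM of these totals, and with the markers left out the sums were 9247 and 10483 CPM. Of the 7 members measured in erythrocyte-like cells Fosl2 was higher, on 6 and 11 UMIs, and Atf3 lower, where 13.5% of 5459 genes were higher and 20.4% lower. Cluster 4, which carried markers of both microglia and endothelium and stayed unnamed, lay between the large classes at 9956 and 12676 CPM, and 150 of its 441 wild-type and 47 of its 143 other cells had top doublet scores. The few oligodendrocyte-like cells, 18 and 8, had the lowest sums at 4144 and 3639 CPM. The difference of ratios between classes was not tested.

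RNA of other cells was present in every class and differed between libraries, and its part in the results was not tested. The 9 endothelial markers, none at 0, summed to 6460 CPM in wild-type and 2121 CPM in the other microglia-like cells. The 12 microglial markers, none at 0, summed to 9361 and 3971 CPM in endothelial-like cells, and to 26453 and 31269 CPM in the microglia-like cells themselves. Neutrophil markers summed to 161 CPM (none of 8 at 0) and 10.1 CPM (1 of 8 at 0) in microglia-like cells. Erythrocyte-like cells are no clean blank, since they held 14418 and 13813 CPM of endothelial markers. With the erythrocyte markers left out of the totals, their AP-1 sum was 9247 and 10483 CPM, against 8444 and 9222 CPM in endothelial-like and 12476 and 20548 CPM in microglia-like cells. How much of the AP-1 RNA in these classes is free RNA was not tested beyond the subtraction that follows.

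Subtracting each library's own profile at the largest share that the markers of other classes allow, 50.3% in wild-type and 20.1% in the other microglia-like cells, left a summed ratio of 0.60 in microglia-like cells and an AP-1 sum of 6310 and 7664 CPM in endothelial-like cells. Single ratios moved both ways, Fosb to 1.14, Junb to 0.67 and Batf3 to -0.16. In endothelial-like cells the same step moved Atf3 to 0.04, Maff to 1.48 and Junb to 2.40. In pericyte or smooth muscle-like cells, at shares of 60.7% and 33.0%, the summed ratio turned to -0.07, with Fos at -0.49 and Junb at 0.90. In erythrocyte-like cells, at shares of 48.5% and 23.2%, the summed ratio was 0.37, though wild-type Junb fell to -178 CPM there. In the 1 in 3 microglia-like cells with the least endothelial marker RNA the summed ratio was 0.68, and these markers still summed to 5262 CPM in the wild-type and 1295 CPM in the other library. The choice of cells thus did not even out that RNA between libraries.

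At an equal 1500 UMIs per cell, which no cell fell short of, the 3 Jun genes were found in nearly every microglia-like cell. Junb was present in 96.9% (96.1 to 97.6, Clopper-Pearson) and 98.5% (97.7 to 99.1) of them, and Jun in 98.8% and 97.7%. Erythrocyte-like cells had shares nearly as high, 81.8% and 88.9% for Junb, 96.4% and 93.1% for Jun and 89.1% and 93.1% for Jund. Their intervals reach the microglia-like shares of Jund (94.7% and 95.9%) and of wild-type Jun, but not those of Junb. For Jun in the library labelled knock-out the interval ends barely short of the microglia-like share of 97.7%. Fos was found in 73.7% (71.8 to 75.5) of wild-type and 83.2% (81.1 to 85.2) of the other microglia-like cells. The share in erythrocyte-like cells was 63.6% (49.6 to 76.2) and 56.9% (44.7 to 68.6), an interval that includes the wild-type but not the other microglia-like share. At 1000 UMIs per cell the Fos shares were 61.4% and 75.7% in microglia-like cells and 38.2% (25.4 to 52.3) and 44.4% (32.7 to 56.6) in erythrocyte-like cells, with no overlap in either library. Endothelial-like cells with Fos at 1500 UMIs were 65.9% and 59.6%. Maff was found in 5.83% (4.88 to 6.90) and 12.9% (11.1 to 14.8) of microglia-like cells and in 0 of 55 and 0 of 72 erythrocyte-like cells. Those counts of 0 leave an upper bound of 6.49% and 4.99%, the first above and the second below the microglia-like share. At 1000 UMIs the erythrocyte-like share in the library labelled knock-out was 2 of 72 cells (0.338 to 9.68%), an interval that includes the microglia-like share of 8.06%, so no Maff share is read as above that of erythrocyte-like cells. Atf3 was found in 69.6% and 73.8% of microglia-like cells, against 41.8% and 26.4% of erythrocyte-like cells. Fosb, Batf3 and Fosl2 were found in 13.3% and 16.2%, 7.16% and 7.91%, and 1.88% and 2.51% of microglia-like cells, and the erythrocyte-like intervals include these shares except that of Batf3 in the library labelled knock-out.

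Without thinning, the shares were 96.7% and 94.2% for Fos and 21.3% and 27.6% for Maff in microglia-like cells, whose median depth was 5516 and 3464 UMIs. The order of the libraries for Fos is thus reversed without thinning, and the shares at equal depth follow the CPM. The Jun share at equal depth was lower in the library labelled knock-out although its CPM was higher, and no order is read from it.

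Summed per cell, the members took a median of 1.2% of the UMIs of a wild-type microglia-like cell, with 5% of cells below 0.533% and 5% above 2.2%. With the knock-out label the median was 1.87% and these bounds were 0.733% and 3.89%. Above the wild-type bound of 2.2% lay 495 of its 1353 cells, 36.6% (34.0 to 39.2). The whole distribution was thus shifted and wider, and no microglia-like cell of either library was without AP-1 RNA. Endothelial-like cells had a median of 0.8% in both libraries. Their distribution was also wider with the knock-out label, with the same bounds at 0.333% and 1.47% in the wild-type library and 0.2% and 1.8% in the other.

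**Figure D3:**
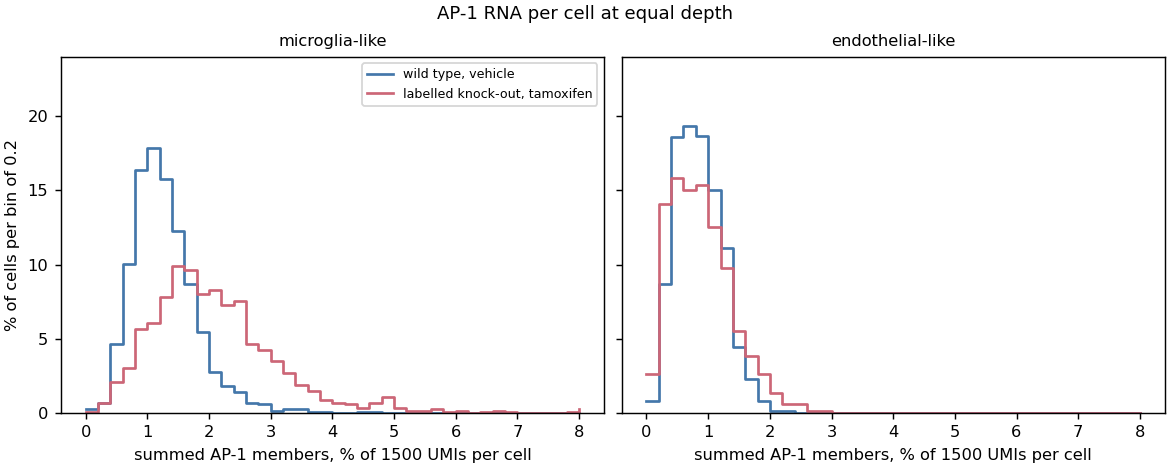
Share of microglia-like (left) and endothelial-like (right) cells by the summed members as a percentage of 1500 UMIs, in bins of 0.2, wild-type library in blue and library labelled knock-out in red, with larger values in the last bin. The red curve of microglia-like cells is wider and lies to the right, with 36.6% of cells above the wild-type bound of 2.2%. The endothelial-like curves share a median of 0.8%, and the red one is wider there too.

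Members varied together only weakly from cell to cell. Over the 36 pairs the Pearson correlation of thinned counts ran from -0.03 to 0.24 in the 2179 wild-type and from -0.01 to 0.35 in the 1353 other microglia-like cells, with Jun and Junb at 0.35 and Jun and Jund at 0.34 in the latter. The highest value in endothelial-like cells, 0.37 for Jun and Jund in the library labelled knock-out, was as large. Cells of 1 library share its free RNA, and most of these counts are sparse.

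The chemokines Ccl3 and Ccl4, which microglia release on activation, divide the microglia-like cells by degree, and each library's cells were put in a low, middle and high tier of equal size by their share of these UMIs. The summed members were at 11114, 12300 and 13668 CPM in the low, middle and high tier of the wild-type library and at 18317, 19673 and 23243 CPM in those of the library labelled knock-out. AP-1 RNA was higher in the high tier of both libraries, by a log2 ratio over the low tier of 0.30 (0.28 to 0.32) and 0.34 (0.32 to 0.36). The low tier of the library labelled knock-out still exceeded the high tier of the wild-type library, though its Ccl3 and Ccl4 RNA was 3228 CPM against 18148 CPM. Between libraries the ratio was 0.72, 0.68 and 0.77 in the 3 tiers.

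Maff had a ratio of the high over the low tier of 0.90 (0.58 to 1.22) in the wild-type library, the largest there, and of 0.75 (0.41 to 1.09) in the other. Fosl2 had 0.38 (-0.11 to 0.88) and 0.78 (0.11 to 1.48), on few UMIs. Atf3 followed at 0.60 and 0.51 and Junb at 0.57 and 0.38. Jun differed least among the abundant members, at 0.08 and 0.16. Fos and Jund had larger ratios in the library labelled knock-out, 0.40 and 0.42, than in the wild-type library, 0.17 and 0.16, with no overlap of the intervals. Batf3 showed no difference beyond counting error in either library.

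**Figure D4:**
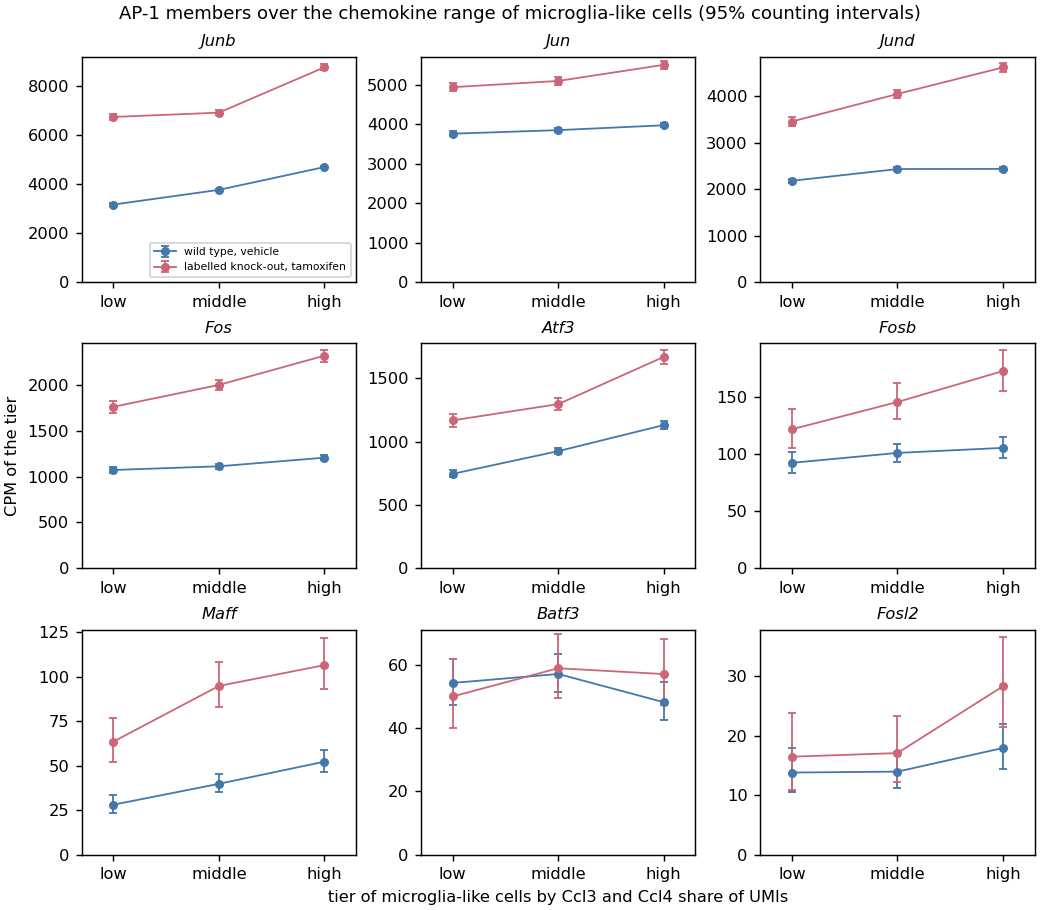
Level of each member, in CPM of the tier, in microglia-like cells divided in tiers of equal size by their share of Ccl3 and Ccl4 UMIs, wild-type library in blue and library labelled knock-out in red, with exact Poisson 95% intervals and axes from 0. Red lies above blue in each tier for every member but Batf3, and Junb, Atf3 and Maff are higher in the high than in the low tier of both libraries.

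With separate clustering, the wild-type microglia-like cells fell mostly in a cluster led by P2ry12, Gpr34 and Rgs1 with 1209 cells and 11349 CPM of AP-1 RNA, and one led by Cxcl2, Il1b and Tnf with 958 cells and 13356 CPM. In the library labelled knock-out a cluster of 587 cells led by Il1b, Tnf and S100a8 had 22456 CPM, one of 469 cells led by Rgs1, P2ry13 and Gpr34 had 17309 CPM, and a cluster of 293 cells had 18833 CPM. Each library thus had more AP-1 RNA in the cytokine-led cluster than in the one led by purinergic receptor genes. Within the library labelled knock-out Junb was at 8533 and 5551 CPM in these 2, Maff at 114 and 43.4 CPM and Fosl2 at 27.3 and 8.43 CPM.

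Genes around AP-1 were read from lists in microglia-like cells, beside the background of 8.1% higher and 12.5% lower. Among 13 measured other AP-1 and bZIP partner genes 4 were higher and 2 lower by 1.5 times, with a median of 0.07. Batf, a Jun partner of lymphocytes and myeloid cells, was at 17.8 and 50.6 CPM (ratio 1.51), and Bach1, a small Maf partner that represses haem oxygenase, at 50.2 and 91.1 CPM (0.86). Crem, of the cAMP response element modulators, was at 33.1 and 17.3 CPM (-0.94) and Ddit3, the stress protein CHOP, at 91.6 and 58.0 CPM (-0.66). The family and its partners therefore did not all differ in the same direction.

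Of 6 measured kinases upstream of AP-1, all lay above 0 with a median of 0.25, and 1 was higher by 1.5 times. It was Map3k8, which links Toll-like receptors to the ERK pathway, at 91.3 and 146 CPM (0.68). Map2k3 and Mapk14 had ratios of 0.36 and 0.26. Of all genes measured in microglia-like cells, 2675 of 5754 lay above 0. In endothelial-like cells 6 of 8 measured kinases lay above 0, also with a median of 0.25 and 1 higher by 1.5 times. Of all genes there, 3880 of 6307 lay above 0 and 5.39% were higher by that fold. Of the factors that bind serum response elements, which switch on Fos, 3 were measured. Elk3 and Elk4 had ratios of 0.38 and 0.17, and Mkl2, an actin-regulated cofactor, was lower at 31.4 and 14.9 CPM (-1.08). No MAP kinase phosphatase of the 5 measured passed 1.5 times in either direction. Dusp1, itself an immediate early gene that shuts down these kinases, was at 1086 and 1110 CPM, a ratio of 0.03 (-0.01 to 0.07). Dusp2 was at -0.02, and Dusp7 and Dusp6 at 0.46 and 0.42. The RNA of these brakes was thus closer between libraries than that of Junb or Fos.

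Other immediate early genes had a median of 0.60, near that of the members, and 9 of 17 measured were higher and 1 lower by 1.5 times. Nr4a1, an orphan nuclear receptor, was at 122 and 340 CPM (1.48), Socs3, a brake on cytokine receptors, at 546 and 1215 CPM (1.15), Zfp36, which speeds decay of cytokine RNAs, at 526 and 1140 CPM (1.12), and Egr2 at 36.5 and 73.1 CPM (1.00). Of 12 measured genes with long-described AP-1 elements, 4 were higher and 1 lower, with a median of 0.40. The adhesion molecule gene Icam1 was at 154 and 297 CPM (0.95), the chemokine gene Ccl2 at 190 and 364 CPM (0.94), and Hmox1, which encodes haem oxygenase, at 196 and 349 CPM (0.84). Vim, the intermediate filament gene, was at 115 and 60.6 CPM (-0.93). These elements come from general knowledge, and no binding was measured.

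Heat shock genes, which also respond to handling, had a median of 0.27, with 5 of 14 higher and 1 lower. Hspa1b was at 170 and 374 CPM (1.14), Hsph1 at 74.8 and 146 CPM (0.97) and Bag3 at 28.9 and 50.9 CPM (0.82), while Hspb1 was at 928 and 411 CPM (-1.18). The labels give both libraries the same digestion, and the part of handling in the AP-1 result was not tested. Among all genes measured in the endothelial-like class, 5.39% were higher and 6.03% lower by 1.5 times. None of the 14 heat shock genes passed that fold in this class, with a median of -0.01. Of 16 other immediate early genes 2 were higher and none lower there, with a median of 0.16. Whether handling bears on these counts was not tested either.

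Finally, the genes whose level followed each member most closely were named over 12 points, each a cluster of at least 20 cells in 1 library, on log2(CPM + 10) of 6698 genes. Points of a library share its depth and free RNA, so the correlations only describe these clusters. Junb was closest to Ppp1r15a (Pearson r 0.985), Zfp36 (0.984) and Golm1 (0.977), and Jun to Tm6sf1 (0.982), Ier2 (0.973) and Arhgap25 (0.972). Jund was closest to Trpc4ap (0.952), Cmtm6 (0.949) and Mapk6 (0.939), and Fos to Spg20 (0.952), Egr1 (0.951) and Zfp703 (0.930). For Fosb the closest were Sqstm1, Calu and Armcx3 (0.916 to 0.924), and for Fosl2 Mef2d, Ppp1r9b and Hspa1b (0.863 to 0.895). Atf3 lay closest to Pmp22 (0.991), Ptpn1 and Lag3, Maff to Tnfaip3, B4galt1 and Pabpc1, and Batf3 to H2-DMb1 (0.982). With a pseudocount of 1 in place of 10, 23 of the 27 genes chosen, 3 for each member, were chosen again.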

How the data were processed

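The authors deposited raw UMI counts as 1 filtered matrix per library (10x Chromium 3′, version 2 chemistry, per the labels). The submitters' processing notes name Cell Ranger 2.0.1, STAR and Seurat 2.1.0, and GRCm38.p5 and mm10, but no role or order. The deposited barcode and gene lists hold other content, names only. How barcodes were chosen was not given in the sources used here. Members, gene lists and markers were chosen with earlier results of these data known.

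Barcodes were kept at 300 genes or more and 10% mitochondrial UMIs or fewer. Both libraries were clustered together with no batch correction (scanpy 1.11.5, leidenalg 0.10.2) on 2000 variable genes, 30 principal components and 15 neighbours at resolution 0.5, without Runx1, sex-linked genes, the members and 20 other immediate early genes. A marker counted for a cluster if it reached 20 CPM there and lay above the midpoint of its range over clusters. A class name needed at least 3 counted markers and 50% of its list. It also needed either no rival at 60% of that share or 2 counted markers among the top 10 genes by fold. Doublets were kept in the main values. As an alternative, the 168 and 54 cells with the highest Scrublet scores were removed, at 0.8% per 1000 barcodes.

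Counts were summed by class within a library and scaled to the summed total of those cells. CPM carry exact Poisson, ratios exact conditional binomial and shares Clopper-Pearson intervals at 95%, from scipy 1.17.1. They cover counting error only, and genes reaching 20 CPM in either library were counted as higher or lower past a fold of 1.5. Genes named are the 9 members, the 3 genes nearest each in pattern, and the 4 or fewer genes per list whose ratios were largest in size. The calculation was tested on simulated data. Positions come from GENCODE M21 (GRCm38), which holds 27645 of the 27998 identifiers. Protein sequences were not used here. Some genes that the naming rule selects are not reported here.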

Additional observations from a re-analysis of the deposited data

Results flagged for a closer look

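Atf3 moved in opposite directions in the 2 large classes. Its log2 ratio of the library labelled knock-out over the wild-type library was 0.55 in microglia-like cells and -0.47 in endothelial-like cells, with 1 library on each side. The endothelial-like ratio was -0.06 with the libraries clustered separately, -0.14 at a finer clustering resolution and 0.0449 after free RNA was subtracted. Separate clustering summed other cells, 853 and 763, and so did the finer resolution, 1082 and 930. The difference between the classes was not tested. Microglial marker RNA in the endothelial-like cells was 9361 CPM in the wild-type and 3971 CPM in the other library, and its part in the Atf3 value was not tested.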

How the results depend on the processing

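No paired analysis was possible because each group has 1 library, and for the same reason no replicate could be left out. The summed ratio in microglia-like cells (0.72) stayed above 0 in all 14 alternatives run. It was 0.74 with the median of ratios as scale, 0.70 without mitochondrial, ribosomal protein and haemoglobin genes in the total, 0.74 with the stricter cell filter, 0.52 with each library clustered on its own, 0.60 after free RNA was subtracted, 0.71 in cells with 3000 to 6000 UMIs and 0.68 in the third with the least endothelial marker RNA. The last 2, the tier with the least Ccl3 and Ccl4 RNA and all alternatives for single members in endothelial-like cells were chosen after seeing the data. The count of members at least 1.5 times higher was 2 with libraries clustered on their own and 1 at a fold of 2. It was 6 after free RNA was subtracted and 5 in cells with 3000 to 6000 UMIs. With thinned cells it was 7 in a single random draw. The added members, Fosb, Fosl2 and Atf3, stayed under 1.5 times in a separate draw. The own clustering left the cytokine-led cluster of 587 cells of the library labelled knock-out unnamed, so it sums fewer cells.

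The summed ratio in endothelial-like cells (0.13) stayed above 0 in all 13 run, at 0.0443 with the median of ratios, 0.0986 without the same genes in the total, 0.0768 as the mean of cell shares, 0.0916 with thinned cells, 0.26 at resolution 1.0, 0.28 with libraries clustered on their own and 0.28 after free RNA was subtracted. Resolution 1.0 and separate clustering summed other sets of endothelial-like cells, 1082 and 930 in the first case and 853 and 763 in the second. Median-of-ratios scaling shifted all endothelial-like values by 0.08 and all microglia-like values by -0.02. Some member ratios of the microglia-like and endothelial-like classes whose counting interval lay clear of 0 turned in direction. These were Fosl2 in microglia-like cells, to -0.39 with libraries clustered on their own, and in endothelial-like cells Fosb and Atf3. After free RNA was subtracted Fosb turned to -0.0197 and Atf3 to 0.0449, a step that left no value for Batf3 in endothelial-like cells. The causes were not tested. Depth limits Fosl2, Batf3 and Maff most, which are sparse in every class.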
